A study of Mus musculus with 8 samples.

Results

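The Bcl2 family genes described here are 10 listed symbols, found in the deposited read counts among 23420 genes, and all 10 of them passed the filter on low counts. They were chosen by name and sorted by the role of their proteins into 2 effectors (Bax and Bak1), 5 BH3-only genes (Bbc3, Pmaip1, Bid, Bad and Bcl2l11) and 3 anti-apoptotic genes (Bcl2, Bcl2l1 and Mcl1). RNA-seq was done on 8 libraries of mouse embryonic fibroblasts of C57BL6/N background, 4 from wild-type and 4 from Neat1-/- cells, the latter called Neat1 null below. All of these cells, controls included, expressed the adenoviral oncoprotein E1A and HRasV12, an activated form of the Ras GTPase, and no drug or other treatment is labelled. Neat1 is a long noncoding RNA that forms the scaffold of nuclear paraspeckles, and the series describes it as induced by p53. The comparison asks which transcripts differ between transformed fibroblasts with and without it. The labels give neither the construct of the null allele nor whether the libraries of a genotype came from separate embryos or cultures, so p-values measure only the spread between these libraries.

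Proteins of the Bcl2 family decide whether the outer membrane of the mitochondrion is opened during apoptosis. Bax and Bak1, when activated, oligomerise and form the pores through which cytochrome c leaves. Bcl2, Bcl2l1 (Bcl-xL) and Mcl1 hold them in check, and the BH3-only proteins Bbc3 (Puma), Pmaip1 (Noxa), Bid, Bad and Bcl2l11 (Bim) bind the anti-apoptotic members, and some of them the effectors directly. Bax, Bbc3 and Pmaip1 are known transcriptional targets of p53, and E1A is known to sensitise fibroblasts to apoptosis that depends on p53.

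Transcripts of both effectors and of 1 BH3-only gene were higher in Neat1 null cells. Bax rose 5.03-fold (ratio of mean CPM), Bak1 3.93-fold and Bad 3.22-fold, where CPM are read counts divided by the scaled library size in units of 1e6. These 3 of 10 members passed an adjusted p of 0.05 in edgeR's quasi-likelihood test, all 3 of them upward, and 4 had an unadjusted p under 0.05. Of the 13316 genes tested 17.7% were called, 9.97% higher and 7.72% lower, and 36.0% had an unadjusted p under 0.05. The other 4 BH3-only genes and the 3 anti-apoptotic genes did not pass. With a correction of every library for gene length and GC content 0 of the 10 passed in edgeR and 4 had an unadjusted p under 0.05, against 12.3% of all genes called (7.64% higher) and 34.0% at an unadjusted p under 0.05. DESeq2 without that correction called the same 3, and 3589 genes in all against 2356 in edgeR.

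The promoters of Bax and Bad, which rose together, and of Bcl2l1, whose pattern over the libraries was closest to that of Bax among the members, are shown as the 250 bases before a RefSeq transcription start (GRCm38.p6). Capitals mark each match on either strand to the GC box GGGCGG, to the E-box CACGTG or to the p53 half-site.
Bax promoter, chr7:45466899-45467148, minus strand: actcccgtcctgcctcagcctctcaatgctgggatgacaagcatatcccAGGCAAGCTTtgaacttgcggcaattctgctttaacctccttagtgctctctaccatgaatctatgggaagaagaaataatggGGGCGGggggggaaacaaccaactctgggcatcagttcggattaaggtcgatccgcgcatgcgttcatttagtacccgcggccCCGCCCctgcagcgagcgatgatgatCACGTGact
Bad promoter, chr19:6941611-6941860, plus strand: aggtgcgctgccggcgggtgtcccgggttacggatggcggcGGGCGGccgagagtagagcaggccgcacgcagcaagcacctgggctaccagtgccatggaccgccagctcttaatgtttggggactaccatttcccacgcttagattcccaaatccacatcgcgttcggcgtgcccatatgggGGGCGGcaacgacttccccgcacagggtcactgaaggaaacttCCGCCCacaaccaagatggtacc
Bcl2l1 promoter, chr2:152831729-152831978, minus strand: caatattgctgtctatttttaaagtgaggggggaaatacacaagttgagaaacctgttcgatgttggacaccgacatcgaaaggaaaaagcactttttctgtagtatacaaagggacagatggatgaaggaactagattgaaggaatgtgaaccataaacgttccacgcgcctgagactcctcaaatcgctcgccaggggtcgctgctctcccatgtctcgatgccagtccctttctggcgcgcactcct

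In the Bax window the matches were 2 GC boxes, 1 E-box and 1 p53 half-site, in that of Bad 3 GC boxes, and in that of Bcl2l1 there was no match. Over 9 members searched, 7 held a GC box, 1 an E-box and 1 a p53 half-site, the latter both in Bax. Of all 32851 RefSeq windows of that length, 32.7% held a GC box, 6.02% an E-box and 7.13% a p53 half-site. Bak1, which rose like Bax, and Bcl2l1 were the 2 members without a GC box, while Bbc3 with 5 and Bcl2 with 7 were not called. None of the 9 windows held a TATA box (TATAAA), found in 12.4% of all windows, and their GC content ran from 47.6% for Bcl2l1 to 76.4% for Bbc3, against a median of 52.4%. These matches are letters in a window, not measured binding sites.

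Depth was ample for these genes, and the libraries differed in more than genotype. Between 19651035 and 38950207 counts per library lay in genes, and the lowest count of any member in any library was 108. Neat1 was at 138 to 1320 CPM in the wild-type libraries and at 6.12 to 11.3 CPM in the Neat1 null ones (exact permutation p = 0.0286, 2-sided, the smallest that 4 against 4 can give). Ribosomal protein genes took at most 7.06% of counts in wild-type and 8.44% to 25.5% in Neat1 null libraries, with the most in Neat1 null library 1, which also had 5.23% on the ribosomal RNA gene Rn45s. The slope of each library's log2 CPM deviation on log2 exon length was 0.138 to 0.248 per doubling in wild-type and 0.00619, -0.0542, -0.317 and -0.481 in Neat1 null libraries 2, 4, 1 and 3. Xist was at 498 to 1815 CPM in the wild-type libraries, 233 CPM in Neat1 null library 3 and at most 3.52 CPM in the other Neat1 null libraries. The summed level of 4 Y-linked genes was 0.0442 to 1.14 CPM in wild-type libraries and 159, 171, 0.106 and 98.9 CPM in Neat1 null libraries 1 to 4. By these genes 3 Neat1 null libraries had the pattern of male cells and the other 5 libraries that of female cells, so sex differed with genotype, and its part in the results was not tested. Of 10 fibroblast markers 1 rose and 1 fell in edgeR, beside 9.97% and 7.72% of all genes. Vimentin (Vim, 1860 and 2415 CPM) and Fn1 (668 and 816 CPM) were high in both genotypes. On the same list Col1a1 (5.47 and 2.50 CPM), Col3a1 (3.22 and 2.85 CPM) and Thy1 (5.27 and 4.53 CPM) were low in both. These markers were named after their values were seen. The receptor gene Pdgfra fell by 3.59 on the log2 scale (adjusted p = 0.00806), not called without Neat1 null library 3 (adjusted p = 0.0646). S100a4 rose by 2.08 (adjusted p = 0.0473), a call kept when Neat1 null library 2 or 4 was left out and lost without any other single library, with 0.61 (adjusted p = 0.353) without Neat1 null library 1 and 0.84 (adjusted p = 0.274) with the length and GC correction.

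Bax encodes the effector that moves from the cytosol to mitochondria. The gene lies on chromosome 7 (GRCm38, 45461697 to 45466898, minus strand, 1576 bases of exon). Wild-type libraries 1 to 4 held 254, 179, 80.0 and 106 CPM of Bax, and Neat1 null libraries 1 to 4 held 1493, 360, 917 and 339 CPM. Every Neat1 null library was above every wild-type library, but libraries 1 and 3 of the Neat1 null group stood apart from libraries 2 and 4, which were nearer to the highest wild-type value. The means were 155 ± 78.5 and 777 ± 547 CPM (SD, n = 4), a difference of 2.33 on the log2 scale (SE 0.55, 95% interval 1.16 to 3.50, adjusted p = 0.0190, edgeR). More cells with a transcript and more of it per cell cannot be told apart in such bulk libraries.

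Bak1, on chromosome 17 (27019810 to 27029009, minus strand, 2407 bases of exon), encodes the effector that resides in the mitochondrial outer membrane. Its wild-type values were 61.9, 61.6, 22.1 and 19.4 CPM and its Neat1 null values 62.6, 105, 353 and 128 CPM. The groups did not overlap, by a narrow margin: Neat1 null library 1, which had the most Bax, was only just above wild-type library 1, and library 3 was far above the rest. Of the 10 members, these 2 effectors were the ones whose groups did not overlap, both upward, against 11.7% of all genes tested in that direction and 22.6% in either. Bak1 thereby differed by 1.98 on the log2 scale (SE 0.55, 95% interval 0.80 to 3.15, adjusted p = 0.0278, edgeR).

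**Figure D1:**
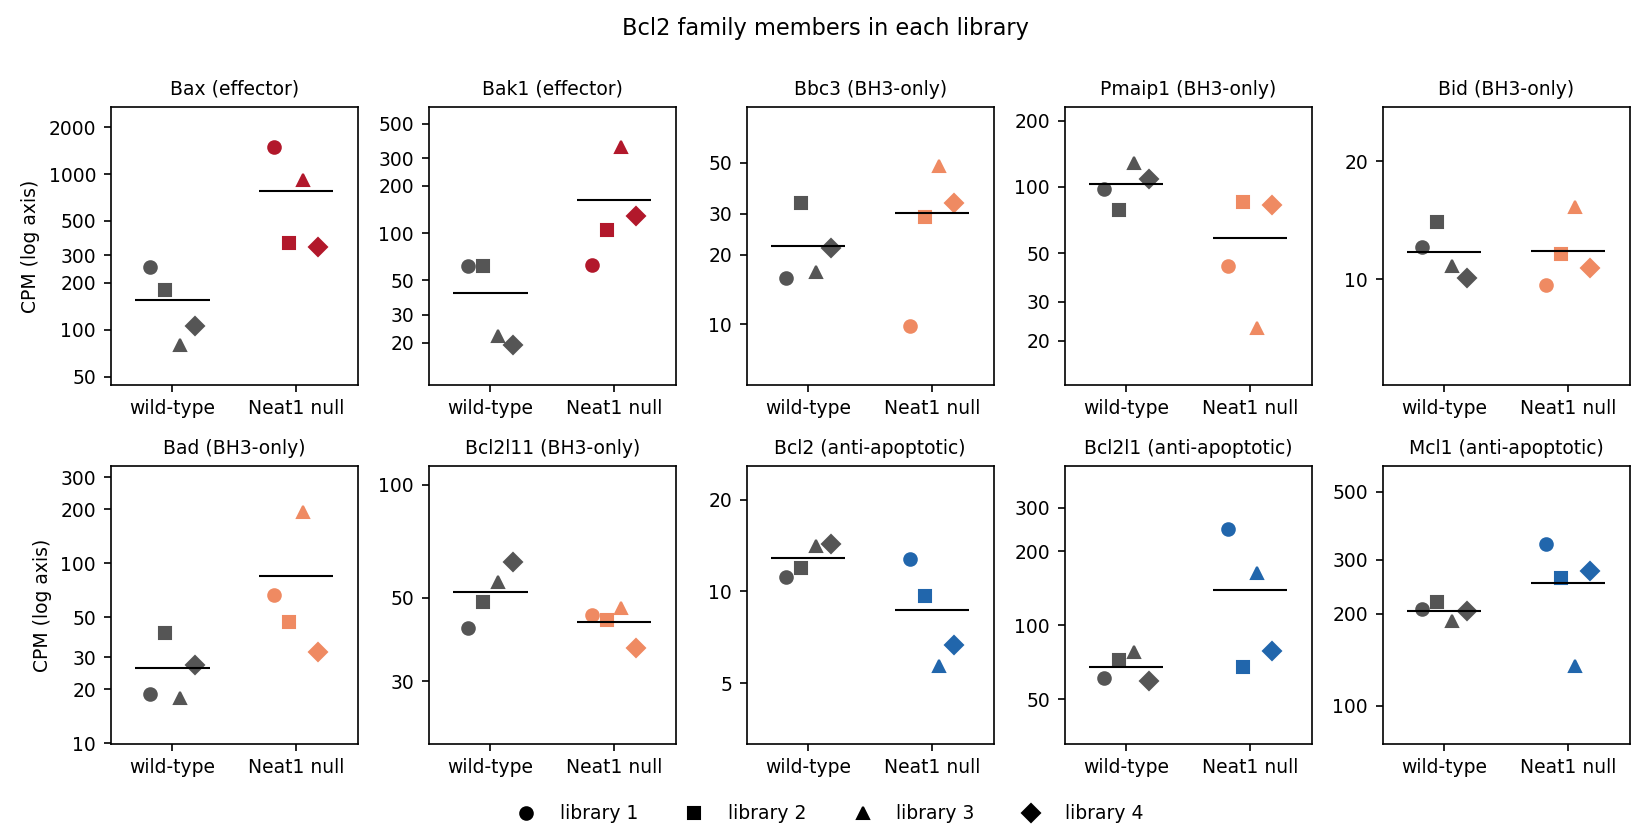
Level of each of the 10 members in CPM (log axis) in the 4 wild-type (grey) and 4 Neat1 null libraries (coloured by role), with a symbol for each library number and a line at the group mean. Bax and Bak1 are the genes whose groups do not overlap, and Neat1 null library 3 is the highest library for Bak1 (353 CPM) and Bad (192 CPM) and the lowest for Pmaip1 (22.7 CPM).

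Among the BH3-only genes, Bad, whose protein binds Bcl2 and Bcl-xL and is silenced by phosphorylation downstream of survival signals, was the 1 of 5 that passed. It lies on chromosome 19 (6941861 to 6951899, plus strand). Levels were 18.7, 40.9, 17.9 and 27.3 CPM in the wild-type libraries, against 66.7, 47.2, 192 and 32.2 CPM in the Neat1 null ones. In 3 of 4 Neat1 null libraries the value was above all wild-type values, and library 4 lay below wild-type library 2. Bad differed by 1.69 on the log2 scale (SE 0.51, 95% interval 0.60 to 2.77, adjusted p = 0.0361, edgeR).

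Pmaip1, the BH3-only gene on chromosome 18 whose product binds Mcl1, had the lowest log2 fold change of the 10 members. Wild-type libraries had 98.1, 78.4, 128 and 109 CPM and Neat1 null libraries 43.7, 85.7, 22.7 and 83.1 CPM. Libraries 1 and 3 of the Neat1 null group were below all others, and libraries 2 and 4 lay within the wild-type range. The log2 fold change of -0.81 (SE 0.41) did not pass (adjusted p = 0.168, edgeR), with an interval from -1.68 to 0.06.

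Bbc3, Bid and Bcl2l11 did not pass either. Bbc3, on chromosome 7 like Bax, encodes a BH3-only protein that binds all the main anti-apoptotic members. Wild-type levels were 15.9, 33.5, 16.8 and 21.4 CPM, Neat1 null levels 9.88, 29.2, 48.2 and 33.6 CPM. Its Neat1 null values ran from below the lowest to above the highest wild-type value, with a log2 difference of 0.47 (SE 0.44, adjusted p = 0.458, edgeR). Bid, the gene whose protein is cleaved by caspase 8 and so links death receptors to mitochondria, had wild-type levels of 10.1 to 14.0 CPM and Neat1 null levels of 9.70 to 15.3 CPM, a log2 difference of 0.01 (SE 0.35). Bcl2l11, induced when growth factor signalling through Erk falls, had 41.6 to 62.1 and 36.8 to 47.0 CPM, a log2 difference of -0.27 (SE 0.30). Neither passed in edgeR (adjusted p = 0.986 and 0.546). The 95% intervals were -0.73 to 0.75 for Bid and -0.92 to 0.38 for Bcl2l11, so differences inside these bounds cannot be told from none here.

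None of the 3 anti-apoptotic genes passed in edgeR or DESeq2, and 1 of them, Bcl2l1, had an unadjusted p under 0.05 in both. Bcl2l1 levels were 60.8, 72.2, 78.2 and 59.5 CPM in the wild-type libraries, against 246, 67.9, 163 and 78.7 CPM in the Neat1 null ones. The same Neat1 null libraries that were highest for Bax, 1 and 3, were highest for Bcl2l1, and the other 2 lay within or at the edge of the wild-type range. The log2 difference was 1.03 (SE 0.41, 95% interval 0.15 to 1.92, adjusted p = 0.0894, edgeR). Without Neat1 null library 2 it was 1.27 and passed (adjusted p = 0.0401), and without library 1 it was 0.60 (adjusted p = 0.249).

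Mcl1, a short-lived anti-apoptotic protein that binds Bak1 and Pmaip1, was the steadiest member among the wild-type libraries, with 207, 218, 189 and 203 CPM. In Neat1 null libraries it had 337, 261, 135 and 275 CPM. In 3 of these the level was above all wild-type libraries, and in library 3 it was below all of them. Mcl1 differed by 0.30 on the log2 scale (SE 0.36, 95% interval -0.46 to 1.07, adjusted p = 0.565, edgeR). Bcl2, the founding member, was at 11.2, 11.9, 14.1 and 14.3 CPM in the wild-type libraries, against 12.8, 9.68, 5.71 and 6.68 CPM in the Neat1 null ones. Of the Neat1 null libraries, 3 lay below all wild-type libraries and library 1 did not, with a log2 difference of -0.57 (SE 0.38, adjusted p = 0.292, edgeR).

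**Figure D2:**
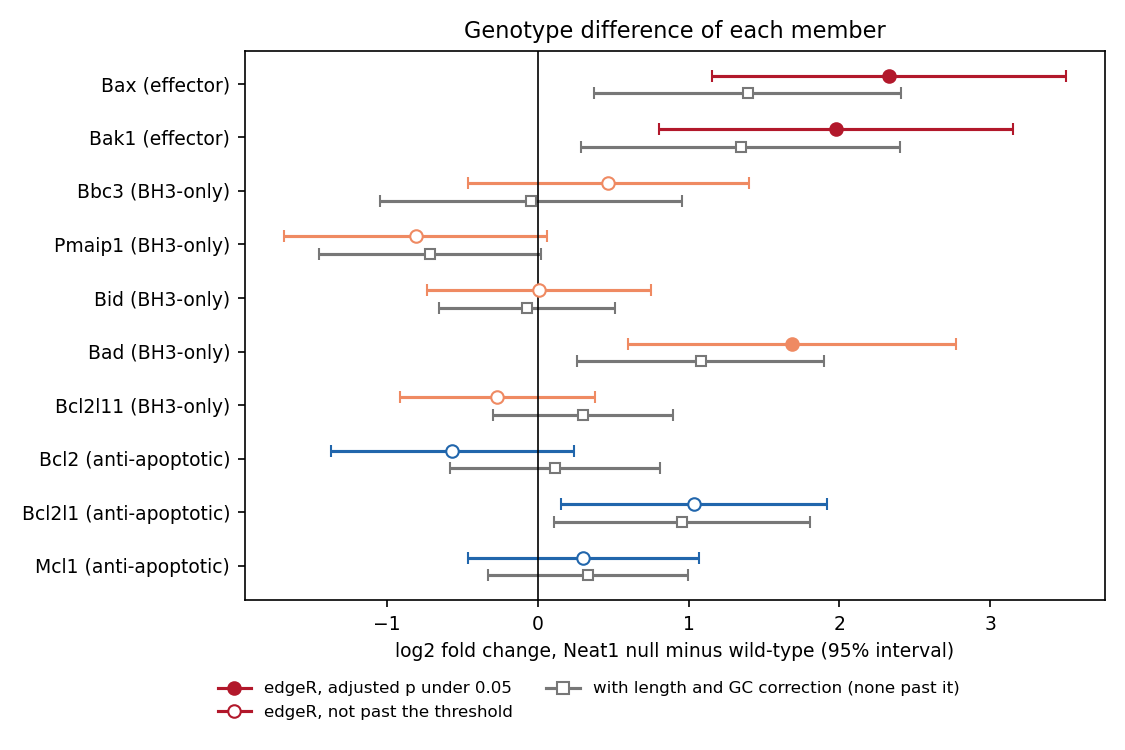
Log2 fold change of each member (Neat1 null minus wild-type) with its 95% interval from edgeR, without (circles, coloured by role) and with (grey squares) the correction for gene length and GC content. Filled symbols passed an adjusted p of 0.05: Bax, Bak1 and Bad without the correction, none with it, where Bax moved from 2.33 to 1.39.

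The 3 calls depended on the length and GC correction and on single libraries. Once corrected, the log2 differences were 1.39 for Bax (SE 0.46, adjusted p = 0.0652), 1.35 for Bak1 (SE 0.48, adjusted p = 0.0789) and 1.08 for Bad (SE 0.37, adjusted p = 0.0723, edgeR). When wild-type library 3, wild-type library 4 or, last, Neat1 null library 3 was left out none of the 10 passed in edgeR, while 4, 3 and 4 of them had an unadjusted p under 0.05. Leaving out the same libraries left 18, 11 and 13 genes called among all tested. Without Neat1 null library 3 the log2 difference of Bak1 was 1.27 and that of Bad 0.90 (adjusted p = 0.105 and 0.134), and that of Bax was 2.24 (adjusted p = 0.0651). Without wild-type library 3 they were 2.11 for Bax, 1.77 for Bak1 and 1.54 for Bad, and without wild-type library 4 they were 2.18, 1.74 and 1.71 (adjusted p = 0.0704 to 0.112, edgeR). Without wild-type library 1 the call of Bad also ended (1.57, adjusted p = 0.0632). Without Neat1 null libraries 1 and 3, the pair with the most negative length slopes, Bax had 1.18, Bak1 1.50 and Bad 0.59, and 0 of 10 passed (2 at an unadjusted p under 0.05). The direction was upward for Bax, Bak1 and Bad in the 19 other settings tried.

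**Figure D3:**
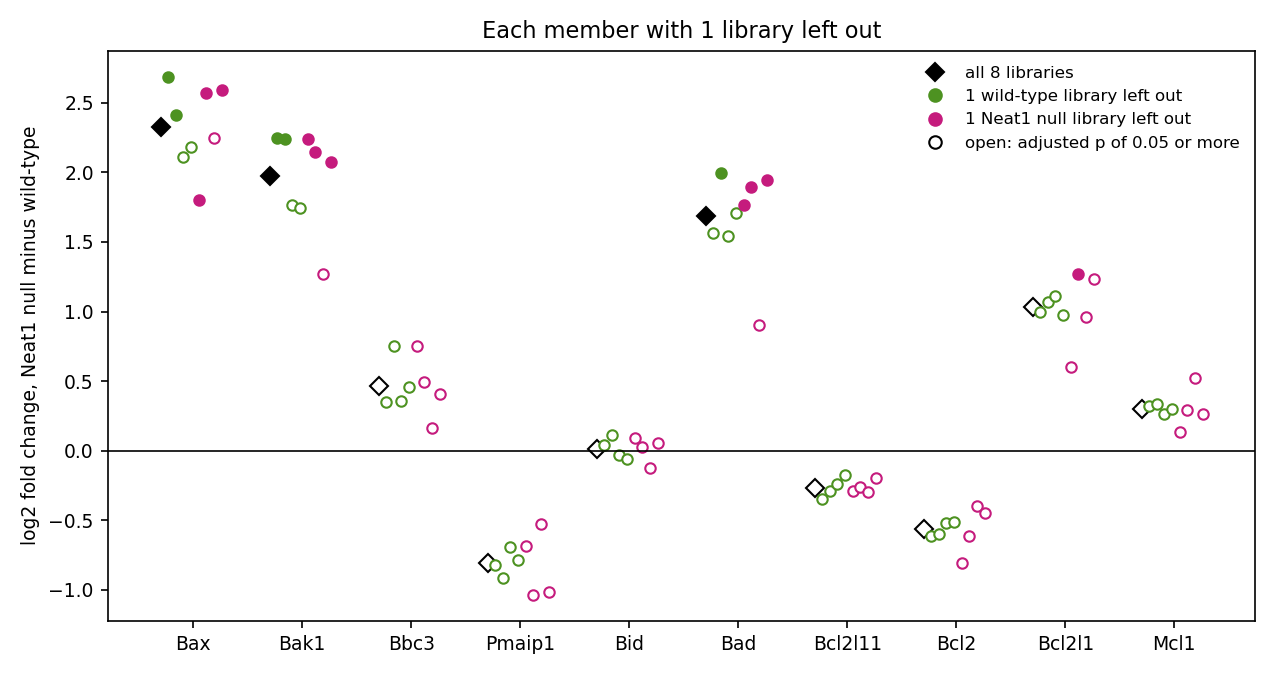
Log2 fold change (Neat1 null minus wild-type) of each member in edgeR with all 8 libraries (diamond), with 1 wild-type library left out (green) or 1 Neat1 null library left out (pink), in the order of library number. Open symbols have an adjusted p of 0.05 or more: Bax and Bak1 each stay called in 5 of the 8 fits and Bad in 4, and all their values stay above 0.

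Expressed per length, as CPM per kilobase of annotated exon, Bax was the most abundant member in both genotypes. The wild-type order of means was Bax (98.1 ± 49.8), Mcl1 (59.8 ± 3.47), Pmaip1 (37.8 ± 7.56), Bak1 (17.1 ± 9.85), Bcl2l1 (14.8 ± 1.97), Bbc3 (10.3 ± 3.82), Bad (10.2 ± 4.18), Bcl2l11 (6.46 ± 1.09), Bid (3.31 ± 0.491) and Bcl2 (1.40 ± 0.167 CPM per kilobase, SD, n = 4). Neighbours in this order overlapped between Bax and Mcl1 and from Bak1 through Bbc3 and Bad to Bcl2l11, and did not overlap elsewhere. In wild-type library 3 Bax (50.7 CPM per kilobase) was even below Mcl1 (55.4). In the Neat1 null libraries Bax (493 ± 347) stood clear of all others, and the next were Mcl1 (73.7 ± 24.7), Bak1 (67.5 ± 54.1), Bad (33.0 ± 28.5), Bcl2l1 (30.2 ± 18.1) and Pmaip1 (21.5 ± 11.3), each overlapping its neighbour. By mean level Pmaip1 stood at rank 3 in wild-type and rank 6 in Neat1 null libraries, and Bad at ranks 7 and 4. Bcl2l11, Bid and Bcl2 took the last 3 places in both genotypes. Annotated exon includes all alternative exons, so the level of genes with long alternative ends is understated.

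**Figure D4:**
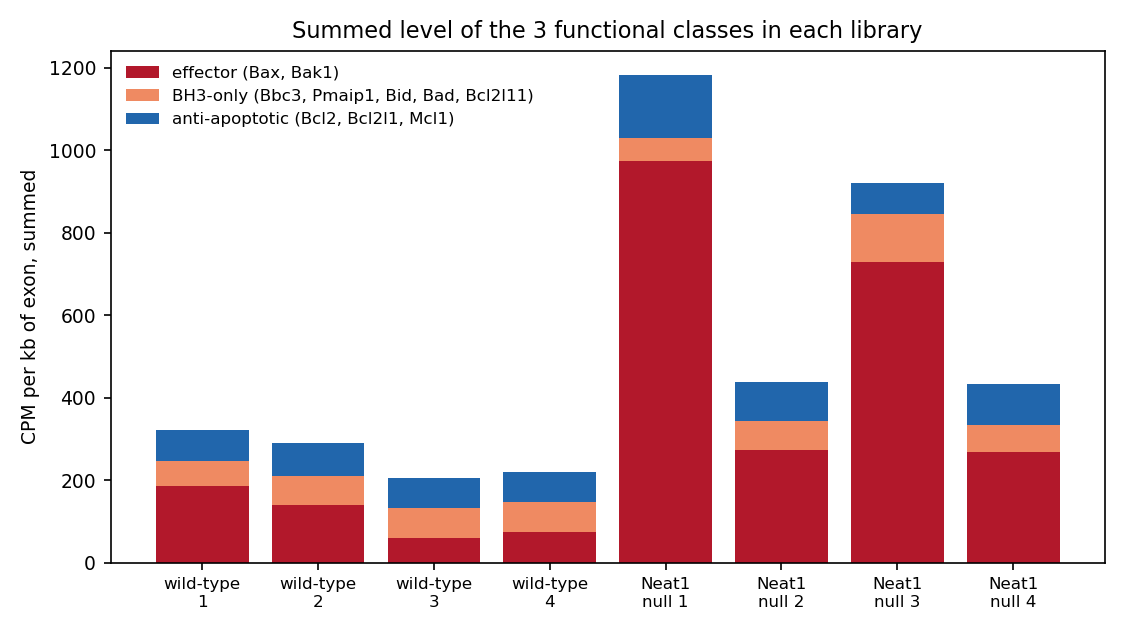
Summed level of the effector, BH3-only and anti-apoptotic genes in each library, in CPM per kilobase of exon, stacked. The effector part is 59.9 to 187 in wild-type and 268 to 973 in Neat1 null libraries. The BH3-only part (59.3 to 71.6 and 55.0 to 116) and the anti-apoptotic part (74.0 to 80.9 and 75.6 to 153) overlap between genotypes.

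Read as a balance of classes, the effectors made up 58.2%, 47.9%, 29.2% and 34.1% of the per-length sum of the 10 genes in wild-type libraries 1 to 4, and 82.4%, 62.3%, 79.2% and 62.0% in Neat1 null libraries. The effector share was higher in every Neat1 null library than in any wild-type library, although wild-type library 1 (58.2%) came close to Neat1 null library 4 (62.0%). The effector to anti-apoptotic ratio was 2.50, 1.72, 0.810 and 1.01 in wild-type and 6.34, 2.95, 9.64 and 2.73 in Neat1 null libraries. Bax, the gene with the least exon sequence of the 10, made up 24.7% to 50.2% and 49.7% to 80.2% of the sum. The shares and the ratio are descriptions, with no test. They carry no length and GC correction, while the length slopes of the libraries differed with genotype.

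The ratio of single members did not all move the same way. Bax over Bcl2, a ratio often quoted as an index of readiness for apoptosis, was 33.1 to 132 per length in wild-type and 216 to 932 in Neat1 null libraries. Bax has the least exon sequence of the members (1576 bases) and Bcl2 the most (9157 bases). The ratios carry no length and GC correction, while the length slopes of the libraries differed with genotype. With that correction the log2 difference went from 2.33 to 1.39 for Bax and from -0.57 to 0.12 for Bcl2. Bax over Mcl1 was 0.916 to 2.67 and 2.67 to 14.7, with Neat1 null library 4 (2.674) only just above wild-type library 1 (2.668). Bax over Bcl2l1 was 2.97 to 12.2 in wild-type and 12.5 to 17.7 in Neat1 null libraries, and the groups lay close together, Bcl2l1 being high in the same libraries as Bax. Bak1 over Mcl1 overlapped between genotypes (0.135 to 0.425 and 0.264 to 3.72). Pmaip1 over Mcl1, a pair whose proteins bind each other, was 0.450 to 0.845 in wild-type and 0.163 to 0.410 in Neat1 null libraries, lower in every Neat1 null library.

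Outside the 10, 1 of 9 tested members of the wider Bcl2 family was called, against 17.7% of all genes tested. Bok, which encodes another effector-like member, had means of 20.2 ± 4.60 and 77.0 ± 47.2 CPM in wild-type and Neat1 null libraries. Its groups did not overlap, as for 11.7% of all genes tested in that direction. Bok rose by 1.93 on the log2 scale (SE 0.43, adjusted p = 0.0183, edgeR), and with the length and GC correction it had 1.10 and still passed (adjusted p = 0.0353). That call ended when wild-type library 3 or 4 or Neat1 null library 3 was left out (adjusted p = 0.0687, 0.0684 and 0.0646). The list's median was -0.08, beside -0.06 over all genes tested. The 10 members themselves had a median of 0.38, with the effectors at 2.15, the BH3-only genes at 0.01 and the anti-apoptotic genes at 0.30. With the length and GC correction these medians were 0.32, 1.37, -0.0446 and 0.33, beside 0.0951 over all genes tested. Bcl2a1a, Bcl2a1b, Bcl2a1d, Bcl2l10, Bcl2l14 and Bcl2l15 were too low to test.

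Of 17 genes of the mitochondrial step and the caspases 3 rose and none fell in edgeR, at a median of 0.37. Over all genes 17.7% were called, 9.97% higher and 7.72% lower. Endog, the mitochondrial endonuclease, rose by 2.27 (SE 0.53, adjusted p = 0.0190), from 2.65 ± 0.762 to 12.8 ± 8.95 CPM. Diablo (Smac), which is released beside cytochrome c and relieves caspases of their inhibitors, rose by 1.47 (SE 0.38, adjusted p = 0.0227), and the outer membrane channel gene Vdac3 by 1.30 (SE 0.36, adjusted p = 0.0262, all edgeR). With the length and GC correction Diablo and Vdac3 had 1.62 and 1.89 (adjusted p = 0.0351 for both), and Endog had 1.10 and no longer passed (adjusted p = 0.0579). In that fit 4 of the 17 were called, all higher, beside 12.3% of all genes called and 7.64% higher. Beside Diablo and Vdac3 these were Cycs and Vdac2. Vdac2, another outer membrane channel gene (1.37, adjusted p = 0.0438), had not passed without the correction (1.05, adjusted p = 0.0657). The number called with 1 library left out ran from 0 to 5. All 3 calls ended when wild-type library 3 or 4 or Neat1 null library 3 was left out (adjusted p = 0.0646 to 0.116), and that of Vdac3 also when wild-type library 2 was (adjusted p = 0.0530).

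The initiator caspases did not pass in edgeR: Casp9 had a log2 difference of -0.23 (SE 0.40) and Casp8 of -0.93 (SE 0.36, adjusted p = 0.0780). Casp8, the initiator at death receptors, was lower in every Neat1 null library (13.0 to 30.1 CPM) than in any wild-type library (34.0 to 44.5 CPM). Apaf1, the scaffold of the apoptosome, had -0.92 (SE 0.40, adjusted p = 0.116), and Cycs, the gene of its activator cytochrome c, 1.05 (SE 0.42, adjusted p = 0.0898). With the length and GC correction Cycs had 1.39 and passed (adjusted p = 0.0479). In that fit Casp8 had -0.92 (adjusted p = 0.0526), Apaf1 -0.36 (adjusted p = 0.3765) and Casp9 -0.24 (adjusted p = 0.648), none of them called. These 4 genes and Vdac2 are named outside the naming rule, after their values were seen.

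Among the inhibitor of apoptosis genes 1 of 5 rose and 1 fell, beside 9.97% and 7.72% of all genes. The list's median was -0.84, and -0.0047 with the length and GC correction. Birc5 (survivin), which also serves the chromosomal passenger complex in mitosis, rose by 1.89 (SE 0.51, adjusted p = 0.0245), from 70.8 ± 33.2 to 262 ± 190 CPM. Birc2 (cIAP1), a ubiquitin ligase of the TNF receptor complex, fell by 1.26 (SE 0.39, adjusted p = 0.0380, edgeR). Birc5 kept its call with the length and GC correction (2.04, adjusted p = 0.0388) and Birc2 did not (-0.91, adjusted p = 0.0634). Both calls ended when wild-type library 3 or 4 or Neat1 null library 1 or 3 was left out (adjusted p = 0.0569 to 0.174), and that of Birc2 also when Neat1 null library 4 was (adjusted p = 0.0673). Without Neat1 null library 1 Birc5 had 1.26.

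In the death receptor list 2 of 7 tested genes rose and 1 fell, with a median of 0.21, beside 9.97% and 7.72% of all genes. Cflar (cFLIP), which keeps caspase 8 from being activated, fell by 1.82 (SE 0.39, adjusted p = 0.0181), from 92.2 ± 31.1 to 26.1 ± 9.69 CPM, and every Neat1 null library was below every wild-type library. The adaptor genes Fadd and Tradd rose by 1.66 (SE 0.50, adjusted p = 0.0347) and 1.37 (SE 0.40, adjusted p = 0.0326, edgeR), with Neat1 null library 3 highest for both (71.1 and 56.7 CPM). With the length and GC correction Cflar had -0.96 (adjusted p = 0.0403) and Fadd 1.60 (adjusted p = 0.0484), both called, and Tradd 0.63 (adjusted p = 0.104). Leaving out wild-type library 3 or 4 or Neat1 null library 3 ended all 3 calls (adjusted p = 0.0646 to 0.133), and without the last of these Fadd had 0.92 and Tradd 0.87. Without wild-type library 2 the call of Tradd ended too (adjusted p = 0.0518).

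**Figure D5:**
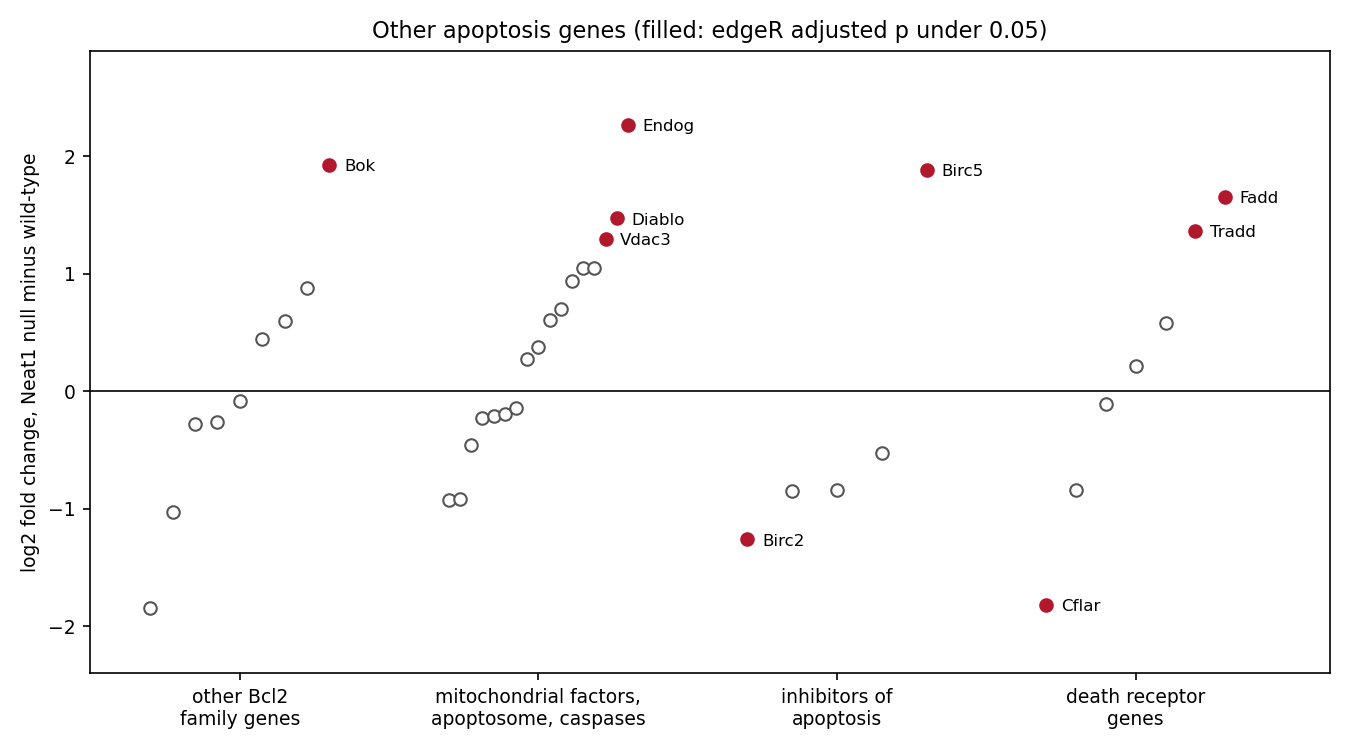
Log2 fold change (Neat1 null minus wild-type) of the tested genes in 4 lists of other apoptosis genes, each sorted by its value. Filled and named points passed an adjusted p of 0.05 in edgeR: Bok, Endog, Diablo, Vdac3, Birc5, Fadd and Tradd above 0, and Birc2 and Cflar below it.

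Genes that act on the family from outside are given beside the 17.7% of all genes called in edgeR. Of 7 tested transcription factors known to act on Bcl2 family genes 0 passed in edgeR and 0 in DESeq2. In edgeR 1 had an unadjusted p under 0.05, beside 36.0% of all genes. Trp53, which encodes p53, was at 269.9, 194, 109.9 and 143 CPM in the wild-type libraries and at 120.0, 222, 612 and 380.0 CPM in the Neat1 null ones, a log2 difference of 0.90 (SE 0.48, adjusted p = 0.189, edgeR). Neat1 null library 1, which held the most Bax, had less Trp53 than 3 of the 4 wild-type libraries. Jun, a component of AP-1, had a log2 difference of -0.16 (SE 0.38).

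Of 6 tested p53 regulators and cell cycle targets 1 fell in edgeR, beside 17.7% of all genes called (7.72% lower). DESeq2 called 3 of the 6, and 3589 genes in all against 2356 in edgeR. The number of genes DESeq2 tested is not given here, so its share of all genes cannot be stated. Cdkn1a (p21), the cell cycle inhibitor, was at 653 to 1232 CPM in the wild-type libraries and at 299.6, 813, 1869 and 1516 CPM in the Neat1 null ones, with library 1 the lowest of all 8 (log2 difference 0.47, SE 0.52, adjusted p = 0.537, edgeR). Mdm2, the ubiquitin ligase that degrades p53, was at 571 to 2137 CPM in the wild-type libraries and at 244, 522, 133 and 705 CPM in the Neat1 null ones (log2 difference -1.49, SE 0.56, adjusted p = 0.0754, edgeR). Mdm2 passed in DESeq2 (adjusted p = 0.0333) and, in edgeR, without Neat1 null library 4 (-1.89, adjusted p = 0.0413), while without wild-type library 1 it had -0.95 (adjusted p = 0.212). Mdm4, its partner, fell by 1.67 (SE 0.39, adjusted p = 0.0189), and the call ended with the length and GC correction (-0.72, adjusted p = 0.0726) and when wild-type library 3 or 4 or Neat1 null library 3 was left out (adjusted p = 0.0646 to 0.0717). Of 4 genes that set the turnover of the Mcl1 protein 0 passed in edgeR and 0 in DESeq2 (1 each at an unadjusted p under 0.05): the ubiquitin ligase gene Huwe1 had -0.64 (SE 0.46) and the deubiquitinase gene Usp9x -1.21 (SE 0.46, adjusted p = 0.0754). Usp9x had -0.19 with the length and GC correction (adjusted p = 0.665), and passed with upper-quartile factors (-1.38, adjusted p = 0.0459) and with 1 surrogate variable (-1.28, adjusted p = 0.0311, edgeR).

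Markers of other cell types were followed beside these values, with 17.7% of all genes called in edgeR (2356 genes) and 3589 genes in DESeq2. In the epithelial list 0 of 5 tested genes passed in edgeR (2 at an unadjusted p under 0.05) and 1 in DESeq2, and the summed list ran from 194 to 633 CPM in the wild-type libraries and from 249.8 to 3182 CPM in the Neat1 null ones, the highest in library 1 through the keratin gene Krt18 (3144 CPM). Of the 5 tested 4 had a positive sign. The list's median was 1.50, and 0.82 with the length and GC correction, beside -0.06 and 0.0951 over all genes tested. Krt14 was at 0 in all libraries, and Epcam was at 43.3 ± 12.5 and 52.4 ± 14.3 CPM. Krt8 (1.52) and Cldn4 (1.50) had means of at most 1.08 CPM in either genotype, and Cdh1 had -1.19. Krt8, Cldn4 and Cdh1 were named after their values were seen. In the blood cell list Cd68, also found outside macrophages, fell by 2.47 (SE 0.64, adjusted p = 0.0239, edgeR), which did not pass when wild-type library 3 or 4 or Neat1 null library 3 was left out. The blood cell sum ran from 9.15 to 102 CPM in the wild-type libraries and from 4.13 to 18.4 CPM in the Neat1 null ones, and Ptprc, Cd3e and Hba-a1 were at 0. The endothelial sum was 4.97 to 44.3 and 0.359 to 2.60 CPM, the neural sum 25.6 to 52.8 and 7.46 to 26.2 CPM, and the skeletal muscle sum 3.10 to 15.4 and 2.73 to 15.6 CPM. Most of the highest endothelial sum was Emcn, which did not pass the filter and was named after its values were seen. Emcn was at 16.7, 0.0221, 39.7 and 0 CPM in wild-type libraries 1 to 4. In the neural list Map2 fell by 1.39 (SE 0.45, adjusted p = 0.0439, edgeR), a call kept without wild-type library 1 or Neat1 null library 2 but lost without any other single library (adjusted p = 0.0511 to 0.155). With the length and GC correction Map2 had -0.56 and was not called (adjusted p = 0.289). The part of these markers in the Bax, Bak1 and Bad values was not tested.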

How the data were processed

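For each library the authors deposited a table of whole-number read counts for 23420 gene symbols, with no normalization. The submitters' processing notes name CASAVA 1.8, STAR, DESeq2 and the mm10 build, without roles. The counting tool, the annotation and whether strand was used in counting are not given in the sources used here. Per the labels' protocols, total RNA went into a stranded TruSeq library kit. Reads outside genes (5.48% to 15.7% of all deposited counts) and ambiguous reads (1.09% to 1.76%) were left out.

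Genes were kept with filterByExpr (minimum count 10), which left 13316 of 23420, scaled with TMM and tested with edgeR 4.0.16 (R 4.3.3; quasi-likelihood, robust, 2-sided, genotype as the only term). P-values were adjusted by Benjamini-Hochberg over all genes tested, threshold 0.05. Log2 differences (Neat1 null minus wild-type) have an SE of their size over the root of F. No 2 libraries of a genotype agreed within sampling noise (lowest chi-square per degree of freedom 59.3).

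Alternatives were RLE and upper-quartile factors, other filters, a non-robust fit, DESeq2 1.42.0, each library left out, Neat1 null libraries 1 and 3 left out, a replicate block, 1 surrogate variable (sva 3.50.0), other thresholds, and splines of exon length and GC content (5 degrees of freedom each) as offsets, with and without the block. Lengths came from GENCODE M21 (GRCm38), where 21777 symbols were found as such and 1282 by a synonym, and 361 were not found. The fit was also run on simulated counts, drawn independently for each gene and library. They held no length slope or sex difference, so that run could not test what these do to the calls.

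The members, lists and alternatives were chosen with earlier results of these data known. The named genes are the 10 members, Neat1, Trp53, Mdm2 and Cdkn1a, and from each other list up to 4 called genes with the smallest p, or the 2 most abundant where none was called. Patterns alike were ranked by Pearson r of log2(CPM + 1). Bax shares 192 exon bases with the same-strand gene Gm45808. Bak1, Bid, Bad and Bcl2 share 614, 628, 524 and 558 exon bases with genes on the other strand, whose reads cannot be told apart if strand was not used. Pmaip1 was left out of the promoter search. Of the caspase list, 1 gene is not reported here, and others are given only within counts.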

Additional observations from a re-analysis of the deposited data

How the results depend on the processing

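Of the 10 members 3 were called, and 3 or 2 with RLE or upper-quartile factors, either other filter, the non-robust fit, DESeq2 or 1 surrogate variable. Upper-quartile factors moved the median of all genes from -0.06 to -0.239 and ended the call of Bad (1.48, adjusted p = 0.0510). Leaving out 1 library gave 0 to 4 called members and 11 to 2965 called genes of all tested, against 2356. Leaving out Neat1 null libraries 1 and 3 gave 0 and 7, an adjusted p under 0.01 gave 0 and 7, and one under 0.10 gave 4 and 3878. The length and GC correction, which moved the median of all genes to 0.0951, gave 0 members, and 1 (Bax) together with the replicate block. DESeq2 called 3589 genes. Neat1 fell by 6.34 without Neat1 null libraries 1 and 3 and was no longer called (adjusted p = 0.0899), and with 1 library left out its log2 fold change ran from -6.77 to -5.93. The causes were not tested.

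Signs that reversed belonged to uncalled genes. With the length and GC correction, without and with the replicate block, they were those of Bbc3 (-0.0446 and -0.21), Bid (-0.0725 and -0.0776), Bcl2l11 (0.30 and 0.26), Bcl2 (0.12 and 0.0533), Huwe1 (0.22 and 0.27) and Epcam (-0.10 and -0.15). Bid also had -0.17 with upper-quartile factors, -0.0126 with the 1 CPM filter, -0.0010 with the replicate block, -0.0030 with 1 surrogate variable, -0.0823 without Neat1 null libraries 1 and 3, and -0.13 to 0.11 with 1 library left out. Jun had 0.21 and Cdh5 0.44 without Neat1 null libraries 1 and 3, and with 1 library left out they ran from -0.5375 to 0.0032 and from -1.0929 to 0.10.

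Replicate numbers gave no evidence of pairing: deviations of same-numbered libraries from their group means correlated at 0.319, -0.252, -0.0112 and 0.116. The replicate block called 2 members (Bax and Bak1) and 2245 genes. Among the genes named in the text it ended the calls of Bad (adjusted p = 0.0594), Birc2 (0.0584), Tradd (0.0504), Fadd (0.0562) and S100a4 (0.113), and with the length and GC correction added it ended that of Fadd (0.0796). DESeq2 gave no adjusted p for S100a4.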

Other observations

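The Neat1 null libraries with the most Bax differed in the rest of the family. Neat1 null library 1 had a per-length ratio of Bax to Bak1 of 36.4, against 3.96 to 8.31 in the other libraries. It also had the lowest Bbc3 (9.88 CPM) and the highest Mcl1 (337 CPM) and Bcl2l1 (246 CPM) of all libraries. Neat1 null library 3 had the opposite extremes for Bbc3 (48.2 CPM, the highest) and Mcl1 (135 CPM, the lowest), together with the most Bak1, Bad and Bid and the least Pmaip1 and Bcl2. The anti-apoptotic genes made up 13.0% and 8.21% of the per-length sum in these libraries, against 21.1% and 22.7% in Neat1 null libraries 2 and 4 and 23.3% or more in wild-type. Their own summed level was not below wild-type. It was 153 and 75.6 CPM per kilobase in Neat1 null libraries 1 and 3, 92.3 and 98.3 in libraries 2 and 4, and 74.0 to 80.9 in wild-type.

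Pearson's r of log2(CPM + 1) between members was taken over the 8 libraries, which differ in genotype and length slope. It was highest for Bax and Bcl2l1 (0.835), Bak1 and Bad (0.778) and Bax and Bad (0.768). The lowest values were those of Pmaip1 and Bad (-0.959) and Bak1 and Bcl2 (-0.926). Taken as deviations from the genotype means, Pmaip1 and Bad still had -0.929 and Bak1 and Bcl2 -0.857, while Bax and Bak1 went from 0.717 to 0.295. Among 11796 other genes the patterns closest to Bax were those of Snrpb, Hspbp1 and Mrpl17 (r from 0.996 to 0.999). For Bak1 they were Cops5, Poldip2 and Tmem189 (0.994 to 0.995), for Bad Wtip, Gstm5 and Rom1 (0.975 to 0.985) and for Pmaip1 Stard13, Fip1l1 and Zfp799 (0.987 to 0.994). With 8 libraries and so many genes, values this high are easily found, and they are descriptions only.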
